A study of Mus musculus with 30 samples.

Results

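The genes described here are 7 of the 29555 in the deposited gene tables, chosen by name for their place in cholesterol synthesis and its control. They are Hmgcs1, Fdft1, Sqle, Lss, Cyp51, Dhcr7 and Insig1. All 7 passed the filter on low counts in every RNA comparison. The first 6 encode enzymes of the pathway and Insig1 encodes a regulator of it. None encodes an uptake receptor, so uptake genes are given from a list beside them.

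Animal cells build cholesterol from acetyl-CoA through mevalonate, farnesyl pyrophosphate and squalene. When sterols in the membrane of the endoplasmic reticulum are scarce, SCAP escorts the transcription factors SREBP1 and SREBP2 to the Golgi, where proteases release the part that enters the nucleus. INSIG proteins hold SCAP back when sterols are ample, and Insig1 is itself a target of SREBP. Most genes of the pathway carry SREBP sites close to binding sites for NF-Y and SP1, and their RNA levels are known to move together when sterol supply changes.

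The cells were mouse epiblast stem cells (EpiSCs), pluripotent cells that resemble the epiblast shortly before gastrulation, and definitive endoderm (DE) made from them. EpiSCs of C57BL/6 (B6), PWK/PhJ (PWK), DBA/2J (DBA) and B6.129 F1 mice were cultured over feeder cells in N2B27-based medium containing Fgf2, ActivinA and the Wnt inhibitor NVP-TNKS656. They were untreated, at passages 5 to 10, and lifted with collagenase. B6 DE came from B6 EpiSCs kept in chemically defined medium, with CHIR99201 and ActivinA for 16 h and then ActivinA and LDN193189 for 24 h. CXCR4-positive DE cells were selected on magnetic beads. The labels also give a total of 46 h, which the 2 steps do not add up to. RNA-seq had 4 libraries of B6 DE and 5 of B6, 3 of PWK, 3 of B6.129 F1 and 1 of DBA EpiSCs, and ATAC-seq had 4 libraries of B6 DE, 4 of B6 EpiSCs, 2 of PWK EpiSCs and 1 of DBA EpiSCs. The replicates are labelled as biological, without saying whether they are separate lines, animals or cultures. P-values therefore measure the spread between these libraries, which may be technical.

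RNA libraries held between 22829536 and 66563933 counts, and ATAC libraries between 3751526 and 9571127 counts in peaks. All 8 definitive endoderm markers of a list were higher in DE, Cxcr4 being the gene of the selection. Their summed level was between 6094 and 12999 CPM (counts per 1000000 counts of the scaled library size) in DE and between 31.3 and 312 CPM in B6 EpiSCs. Cer1 alone was between 3408 and 9591 CPM in DE, so the sum largely follows this gene. Of the 8 visceral endoderm markers 5 were tested and 2, Apoa1 and Amn, were called higher in DE. Their summed level was between 3.75 and 18.6 CPM in DE and between 2.74 and 6.33 CPM in B6 EpiSCs, and Afp and Ttr had no count in 3 of the 4 DE libraries. Pou5f1, the pluripotency factor Oct4, was at 37.8, 6.34, 2.46 and 4.79 CPM in DE replicates 2, 4, 44 and 51, so replicate 2 stood apart, and results are also given without it. Of the 6 pluripotency markers listed, 4 were called lower in DE, while 2, Fgf5 and Otx2, were called higher. The 6 summed to between 1912 and 2246 CPM in DE and between 1596 and 2117 CPM in B6 EpiSCs. Mean levels in DE and B6 EpiSCs were 1589 and 211 CPM for Fgf5 and 12.9 and 1127 CPM for Pou5f1. Genes on chromosome 8 had a median shift of 0.46 on the log2 scale in DE replicate 51. In DE replicates 2, 4 and 44 it was -0.12, -0.13 and -0.14. None of the 7 genes lies there, but Mvd and Msmo1 do. Feeder fibroblast markers summed to between 48.6 and 2391 CPM in B6 EpiSCs and between 55.2 and 229 CPM in DE.

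The promoters of 5 of the 7 genes were in the RefSeq windows used here, which run from 250 bases before to 50 bases after an annotated start in GRCm38.p6 (the assembly called mm10 in genome browsers). Sqle (ENSMUSG00000022351, chr15:59315092-59331193) and Fdft1 (ENSMUSG00000021273, chr14:63145150-63181687) had none. Lss (ENSMUSG00000033105) lies at chr10:76531565-76557139 and Dhcr7 (ENSMUSG00000058454) at chr7:143823167-143848410. Hmgcs1 (ENSMUSG00000093930) lies at chr13:119690351-119708260, Cyp51 (ENSMUSG00000001467) at chr5:4080674-4104697 and Insig1 (ENSMUSG00000045294) at chr5:28071412-28078662. Their windows are shown because the first holds the only sterol element found, the second belongs to the gene that rose most and the third to the gene with the largest change in a peak. They are chr13:119690101-119690400 (plus strand), chr5:4104648-4104947 (minus strand) and chr5:28071162-28071461 (plus strand). Capitals mark an SRE-like element (TCACNCCAC, the core of a classical SREBP site), NF-Y boxes (CCAAT) and GC boxes (GGGCGG, the letters of an SP1 site), each searched on both strands (ATTGG and CCGCCC are the boxes on the other strand).
Hmgcs1: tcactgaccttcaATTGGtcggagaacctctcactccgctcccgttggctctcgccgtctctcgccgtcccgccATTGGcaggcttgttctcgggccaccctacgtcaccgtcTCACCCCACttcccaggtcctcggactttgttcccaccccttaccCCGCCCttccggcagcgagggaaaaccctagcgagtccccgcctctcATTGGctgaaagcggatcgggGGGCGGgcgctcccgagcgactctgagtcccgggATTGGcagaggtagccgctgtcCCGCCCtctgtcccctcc
Cyp51: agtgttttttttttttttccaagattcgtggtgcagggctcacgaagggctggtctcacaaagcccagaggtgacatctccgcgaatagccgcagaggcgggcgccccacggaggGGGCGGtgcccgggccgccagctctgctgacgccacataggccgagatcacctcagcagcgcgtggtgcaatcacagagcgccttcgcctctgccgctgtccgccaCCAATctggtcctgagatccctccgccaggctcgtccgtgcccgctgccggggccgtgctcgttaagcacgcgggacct
Insig1: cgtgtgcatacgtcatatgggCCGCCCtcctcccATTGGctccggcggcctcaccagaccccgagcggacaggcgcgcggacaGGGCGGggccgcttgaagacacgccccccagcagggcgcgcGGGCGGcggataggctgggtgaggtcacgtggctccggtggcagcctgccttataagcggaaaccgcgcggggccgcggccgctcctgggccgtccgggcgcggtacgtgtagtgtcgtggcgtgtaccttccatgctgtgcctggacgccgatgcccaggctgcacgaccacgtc

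The SRE-like letters occurred in the Hmgcs1 window, 137 bases before the start, and in none of the other 6 windows of these genes. They were in 1.24% of all 32851 RefSeq windows and in 0 of the 51 windows of the wider sterol and lipid lists. NF-Y boxes were in 5 of the 7 windows, against 37.4% of all windows, and GC boxes in 6 of 7, against 35.7%. Hmgcs1 had 4 NF-Y boxes, and the Cyp51, Insig1 and Lss windows had 1 each. In Dhcr7 both NF-Y boxes were in the window of the third annotated start. The element sought is one strict spelling, and these matches describe letters in a window. The map of motif letters shows their positions with the peaks.

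**Figure D1:**
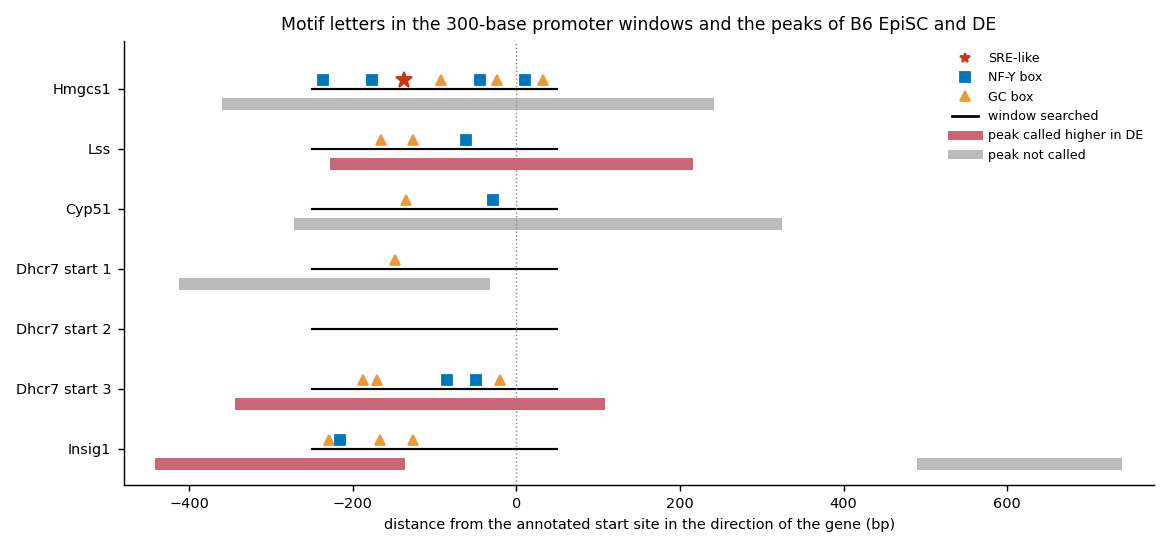
Motif letters and ATAC-seq peaks around the annotated starts of 5 genes, with the distance from each start in bp on the horizontal axis. Black lines are the windows searched, symbols are matches of the 3 motifs, and bars are the peaks of the B6 comparison within 2 kb. The single SRE-like match lies in Hmgcs1, and the Insig1 peak called higher in DE lies upstream of the start, over 1 NF-Y box and 2 GC boxes.

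How these genes differ between EpiSCs and DE was read from B6 libraries. The 2 groups also differed in medium, in added factors and in bead selection, which this design cannot tell apart from cell state. Of the 7 genes, 5 were called higher in DE and 0 lower by edgeR's quasi-likelihood test, with a threshold of 0.05 on the adjusted p. Cyp51, Fdft1 and Sqle were between 2.52-fold and 3.24-fold higher, Insig1 was 1.62-fold higher and Hmgcs1 was 1.35-fold higher. Lss and Dhcr7 were not called. The background is high, since 31.5% of the 14085 genes tested were called higher and 30.6% lower, 62% in all. Groups did not overlap, with DE higher, for 4 of the 7 genes and for 28% of all genes. The median log2 change was 0.70 over the 7 genes and -0.01 over all genes tested. At an unadjusted p under 0.05 the counts were also 5 and 0, and DESeq2 gave 4 and 0, without Hmgcs1. Without DE replicate 2, 6 of the 7 were called higher, Lss being the addition. In bulk samples, more cells of a type and more RNA per cell cannot be told apart.

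Hmgcs1 encodes the cytosolic synthase that makes HMG-CoA, an early intermediate of the pathway. Its level was 684, 754, 1014 and 724 CPM in DE replicates 2, 4, 44 and 51, and 728, 616, 598, 468 and 527 CPM in EpiSC replicates 1, 2, 4, 44 and 51. The groups overlapped, because EpiSC replicate 1 lay above 2 DE libraries. The log2 change was 0.43 (SE 0.17, adjusted p = 0.0432 from edgeR). This call was the weakest of the 5. It was lost when any 1 of DE replicates 4, 44 and 51 or EpiSC replicates 2, 4, 44 and 51 was left out, with adjusted p between 0.053 and 0.148, and it was kept without DE replicate 2 (0.0233) and without EpiSC replicate 1. It was also lost with total library size as the scaling (0.125), RLE scaling (0.0752), DESeq2 (0.0595), no filter (0.0677) and a minimum of 10 counts per library (0.075).

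Fdft1 encodes squalene synthase, which commits farnesyl pyrophosphate to sterols. DE libraries were at 406, 344, 348 and 346 CPM and EpiSC libraries at 176, 136, 107, 92.0 and 106 CPM, in the same order of replicates. The lowest DE library lay well above the highest EpiSC library. On the log2 scale the difference was 1.55 (SE 0.19, adjusted p = 6.11e-05 from edgeR), and 1.49 without DE replicate 2, the highest of its group. Sqle encodes squalene epoxidase, a rate-limiting enzyme further down. It was at 365, 521, 573 and 564 CPM in DE and 240, 223, 179, 163 and 199 CPM in EpiSCs. Here DE replicate 2 was the lowest of its group, and the groups still did not overlap. The log2 change was 1.33 (SE 0.17, adjusted p = 8.87e-05 from edgeR), and 1.47 without that library.

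Lss encodes lanosterol synthase, which folds the epoxide into the first sterol ring system. Its DE levels of 165, 256, 222 and 258 CPM overlapped the EpiSC levels of 225, 211, 174, 163 and 149 CPM. On the log2 scale the difference was 0.29 (SE 0.18, adjusted p = 0.181 from edgeR). Without DE replicate 2, the lowest of its group, it was 0.42 and passed the threshold (adjusted p = 0.0362). Cyp51 encodes lanosterol demethylase, the next enzyme. It was at 680, 761, 872 and 817 CPM in DE and 316, 236, 225, 196 and 232 CPM in EpiSCs. Every DE library was more than 2 times the highest EpiSC library. The log2 change of 1.70 (SE 0.16, adjusted p = 9.87e-06 from edgeR) was the largest of the 7, and it was 1.77 without DE replicate 2.

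Dhcr7 encodes a reductase at the end of the pathway. Its DE levels of 79.2, 198, 143 and 201 CPM lay on both sides of the EpiSC levels of 170, 131, 152, 142 and 111 CPM. The log2 change was 0.14 (SE 0.25, adjusted p = 0.654 from edgeR), 0.36 without DE replicate 2 (adjusted p = 0.0771) and -0.01 without DE replicate 51. Relative to its mean, Dhcr7 had the widest spread of the 7 in DE, with a mean of 155 CPM ± 57.3 (SD, n = 4). Insig1 encodes the retention protein of SCAP. It was at 151, 207, 258 and 162 CPM in DE and 151, 112, 113, 117 and 107 CPM in EpiSCs. The lowest DE library and the highest EpiSC library, DE replicate 2 and EpiSC replicate 1, were level at this precision, so that the groups only just did not overlap. On the log2 scale the difference was 0.70 (SE 0.18, adjusted p = 0.00653 from edgeR), and 0.81 without DE replicate 2.

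**Figure D2:**
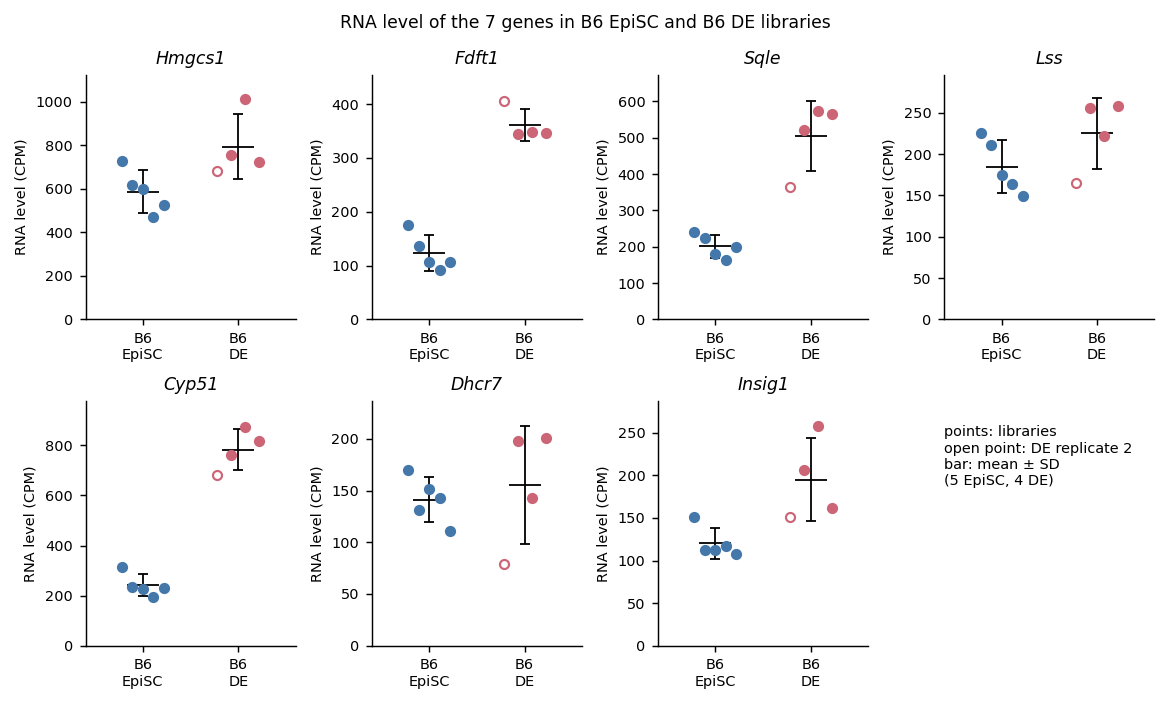
RNA level in CPM of the 7 genes in each B6 EpiSC (5) and B6 DE (4) library, with the mean ± SD, and DE replicate 2 as an open point. Fdft1, Sqle and Cyp51 separate the groups widely, while Lss and Dhcr7 overlap, with DE replicate 2 the lowest DE library for both.

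Levels also varied among the EpiSC libraries. EpiSC replicate 1 had the highest level of all 7 genes in its group, and it had the lowest feeder marker sum (48.6 CPM, against 339 to 2391 CPM in the other 4). Of the 8 feeder markers 7 were tested, all 7 were called lower in DE, and Fbln5 had no count in any DE library. The part of feeder RNA in these results was not tested. Without EpiSC replicate 51, the one with the highest feeder sum, 4 of the 7 were called higher, the call of Hmgcs1 being lost.

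Among other enzymes of the mevalonate arm, 5 of 8 were called higher in DE and 0 lower, against 31.5% and 30.6% of all genes. The median change of the 8 was 1.11 (log2). DESeq2 and an unadjusted p under 0.05 gave the same counts, and without DE replicate 2 there were 7 higher. Acat2, which makes acetoacetyl-CoA, was at 599 to 708 CPM in DE and 135 to 193 CPM in EpiSCs, a log2 change of 2.00 (SE 0.14, adjusted p = 1.94e-06 from edgeR). Fdps, the farnesyl pyrophosphate synthase, rose by 1.42 (SE 0.20). Idi1, the isopentenyl isomerase, rose by 0.80 (SE 0.13). Mvd, the mevalonate decarboxylase, rose by 1.68 (SE 0.18), or 1.53 without DE replicate 51, and its highest level, 261 CPM, was in the library with the chromosome 8 shift.

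Among other enzymes after squalene, 6 of 8 were called higher and 1 lower, against 31.5% and 30.6% of all genes tested. The median of the 8 was 0.92. Tm7sf2, a sterol reductase that acts after Cyp51, was at 123, 78.8, 92.7 and 82.7 CPM in DE and 14.7 to 22.6 CPM in EpiSCs, a log2 change of 2.21 (SE 0.18, adjusted p = 4.95e-06 from edgeR). Msmo1, the sterol methyl oxidase, rose by 1.52 (SE 0.20), or 1.40 without DE replicate 51, and its lowest DE library, 512 CPM, was above its highest EpiSC library, 327 CPM. Sc5d, a desaturase near the end, rose by 0.96 (SE 0.25).

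Of the regulators, 2 of 6 were called higher and 2 lower (median 0.04), shares close to those of all genes tested. Srebf1, which encodes the SREBP linked mainly to fatty acid genes, rose by 1.02 (SE 0.15), from 124 CPM ± 20.0 (SD, n = 5) to 252 CPM ± 17.5 (SD, n = 4). Srebf2, which encodes the SREBP linked mainly to sterol genes, was at 247, 523, 407 and 392 CPM in DE and 344 to 471 CPM in EpiSCs. This made a log2 change of 0.01 (SE 0.20, adjusted p = 0.956 from edgeR), with a sign that turned under several other settings. Insig2, the paralog of Insig1, rose by 0.77 (SE 0.14), and Scap fell by 0.94 (SE 0.24). These are RNA levels and do not measure the cleaved factors.

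The uptake and lysosomal list had 2 of 11 genes called higher and 3 lower (median -0.24), against 31.5% and 30.6% of all genes tested. Mylip, a ubiquitin ligase that targets lipoprotein receptors, rose by 1.68 (SE 0.25). Lrp2, a large endocytic receptor, was between 1.37 and 2.80 CPM in DE and 118 to 143 CPM in EpiSCs, so that it fell by 5.84 on the log2 scale (SE 0.23, adjusted p = 2.99e-07 from edgeR). Stard4 (-0.34, SE 0.21) and Npc1 (-0.24, SE 0.17) were not called.

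In the list of efflux, LXR and storage genes, 2 of 6 tested were called higher and 1 lower (median -0.52). Of all genes tested, 31.5% were called higher and 30.6% lower. Apoe, an apolipoprotein, was at 1137, 532, 549 and 564 CPM in DE and 41.6 to 99.1 CPM in EpiSCs, a log2 change of 3.52 (SE 0.33). Soat1, which esterifies cholesterol for storage, fell by 1.43 (SE 0.25), and Abca1 was not called (-1.11, SE 0.55). Fatty acid synthesis genes had 0 of 12 called higher and 6 lower (median -0.44), against the same shares of all genes. DESeq2 and an unadjusted p under 0.05 also gave 0 and 6. Acaca, which makes malonyl-CoA, was at 27.5, 52.6, 15.5 and 55.2 CPM in DE and 310 to 394 CPM in EpiSCs, so that it fell by 3.18 on the log2 scale (SE 0.36). Fasn, the fatty acid synthase, fell by 1.80 (SE 0.19) and Scd1, a desaturase, by 0.58 (SE 0.16), while Scd2 was not called (-0.29, SE 0.19). Without DE replicate 2, 2 of the 12 were called higher and 6 lower.

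**Figure D3:**
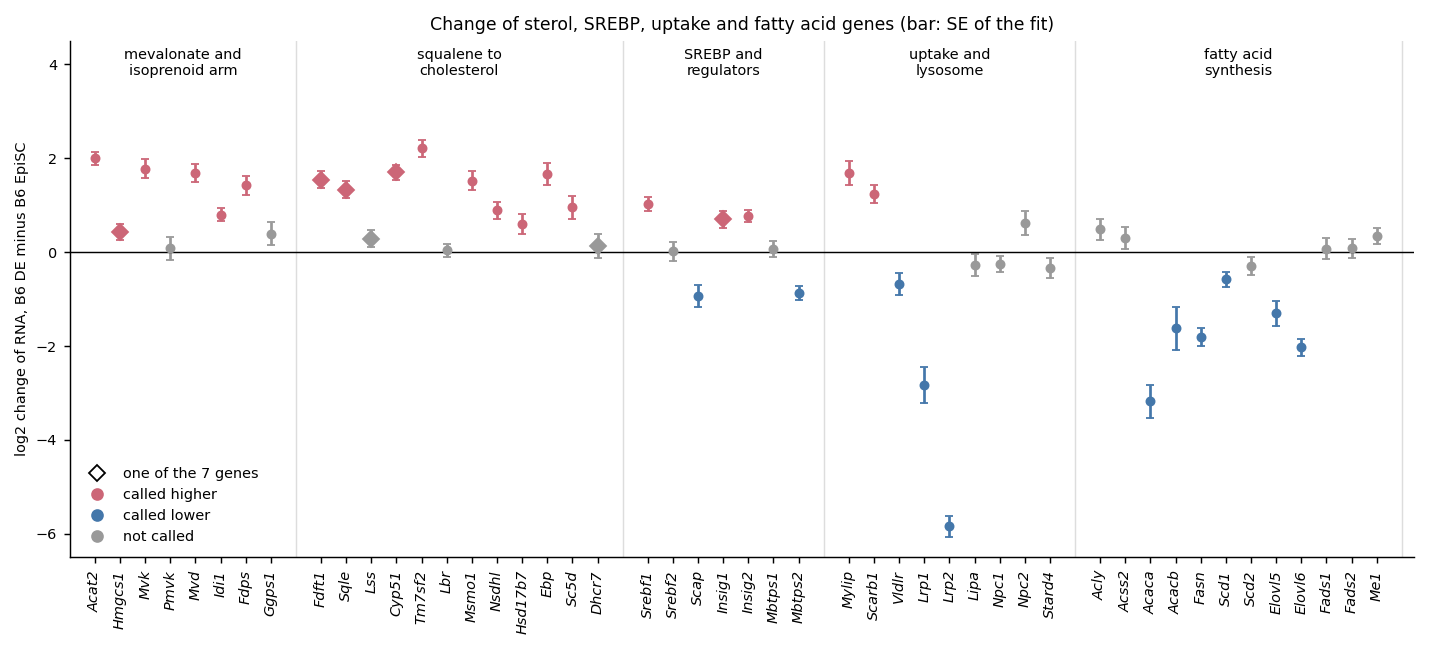
Log2 change of RNA in B6 DE against B6 EpiSCs (vertical axis, with the SE of the fit) for the 7 genes (diamonds) and most listed genes of the pathway, its regulators, uptake and fatty acid synthesis, in rough order of action. Called genes are red (higher) or blue (lower). Most enzymes of the first 2 blocks lie above 0, and no called fatty acid gene lies above 0.

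Chromatin accessibility near the starts was compared in the same groups. Within 2 kb lay 8 peaks, namely 1 each for Hmgcs1, Lss and Cyp51, 2 each for Dhcr7 and Insig1, and 1 at an end of the Sqle gene, whose strand is not given in the gene table used. Fdft1 had no peak within 2 kb of either end. Of the 8, 3 were called higher in DE and 0 lower by edgeR, against 32.6% and 25% of the 113870 peaks tested. That share is close to the background. An unadjusted p under 0.05 gave 4 higher and 0 lower, and DESeq2 gave 2 and 0.

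The clearest change was at Insig1. Its upstream peak, chr5:28070970-28071276, was at 13.4, 14.6, 14.6 and 14.1 CPM in DE replicates 2, 4, 44 and 51 and at 7.84, 5.61, 6.89 and 6.35 CPM in EpiSC replicates 1, 4, 44 and 51. All DE libraries were above all EpiSC libraries. The log2 change was 1.10 (SE 0.23, adjusted p = 0.000379 from edgeR), and it stayed called without any 1 library. The peak ends 136 bp before the start and covers the NF-Y box and the first 2 of the 3 GC boxes capitalised in the printed Insig1 window. A second Insig1 peak inside the gene, chr5:28071902-28072152, changed by 0.04 (SE 0.28), with EpiSC libraries spread from 6.71 to 20.9 CPM.

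At Lss, whose RNA was not called, the promoter peak chr10:76531377-76531820 was at 70.2, 55.6, 51.7 and 63.7 CPM in DE and 41.7, 38.9, 40.8 and 48.8 CPM in EpiSCs. This was a log2 change of 0.50 (SE 0.13, adjusted p = 0.00312 from edgeR), lost without DE replicate 2 (0.31, adjusted p = 0.0657), with total library size as the scaling (0.29, adjusted p = 0.0681) and in the fit on the libraries that share a number (0.37, adjusted p = 0.0658). The Dhcr7 peak at the third start, chr7:143829870-143830323, changed by 0.34 (SE 0.13, adjusted p = 0.0304 from edgeR), a call lost when any 1 of the 8 libraries was left out. At Cyp51, whose RNA rose most, the peak over the start, chr5:4104372-4104969, was at 40.3, 27.5, 37.8 and 32.3 CPM in DE and 28.8, 38.6, 23.7 and 34.2 CPM in EpiSCs. Those values overlapped (log2 change 0.13, SE 0.17, adjusted p = 0.540 from edgeR). The Hmgcs1 peak, chr13:119689991-119690593, which spans the SRE-like element, ran from 97.6 to 109 CPM in DE and from 91.2 to 115 CPM in EpiSCs. With total library size as the scaling, which moved the median of all peaks to -0.22, the signs of the Cyp51 peak (-0.09) and the Hmgcs1 peak (-0.18) turned. The Sqle peak was at 54.1, 41.1, 43.1 and 40.9 CPM in DE and 38.1, 39.2, 26.5 and 36.3 CPM in EpiSCs. It did not pass (log2 change 0.35, SE 0.15, adjusted p = 0.0552 from edgeR), although the groups did not overlap, as was so for 30.4% of all peaks in that direction.

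**Figure D4:**
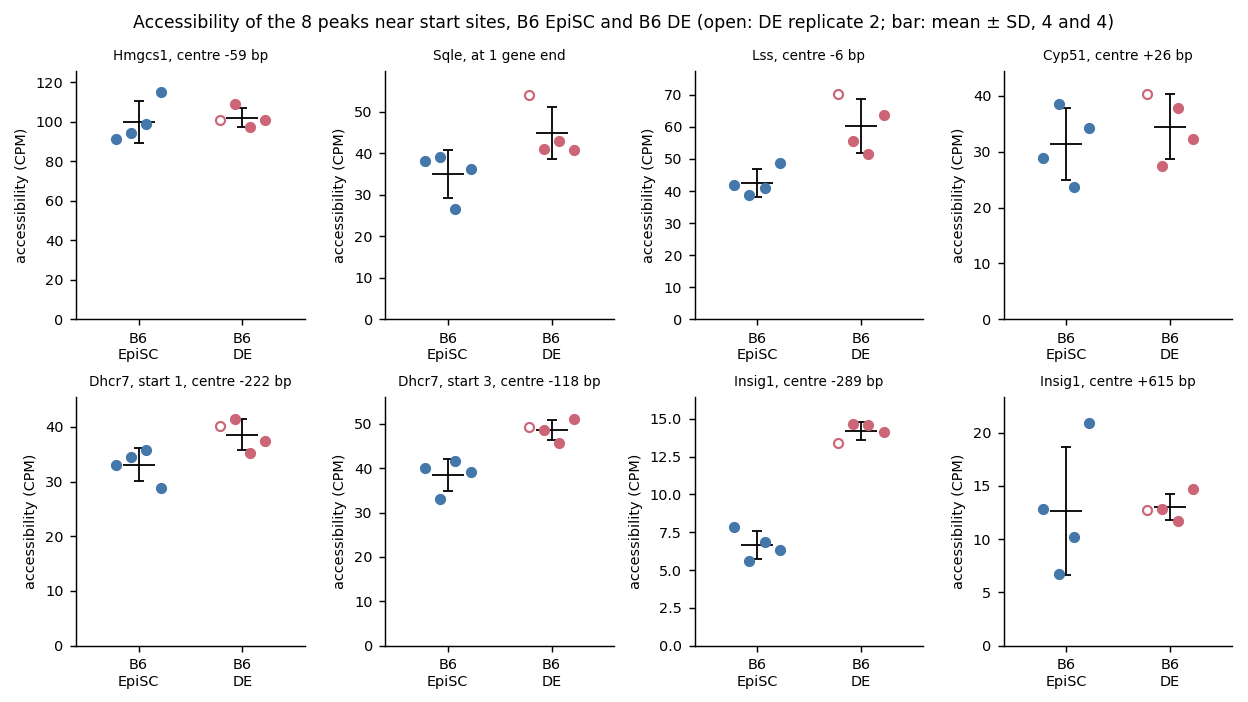
Accessibility in CPM of the 8 peaks near the genes in 4 B6 EpiSC and 4 B6 DE ATAC-seq libraries, with the mean ± SD, and DE replicate 2 as an open point. The upstream Insig1 peak separates the groups, at 5.61 to 7.84 CPM in EpiSCs and 13.4 to 14.6 CPM in DE, while the Cyp51 and Hmgcs1 peaks overlap.

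The study also compared EpiSCs of several genetic backgrounds. Here Insig1 was the only one of the 7 called between PWK and B6, against 12% of the 14822 genes tested called higher and 14.5% lower. It was at 211, 167 and 204 CPM in PWK BioRep695, BioRep698 and the library with no number. In B6 replicates 1, 2, 4, 44 and 51 it was at 157, 117, 115, 121 and 111 CPM. The lowest PWK library lay above the highest B6 library, as for 16.4% of genes. On the log2 scale the difference was 0.64 (SE 0.13, adjusted p = 0.00557 from edgeR), and the call was kept without any 1 library (adjusted p 0.00109 to 0.0382). The count called lower was 0 in edgeR, in DESeq2 and at an unadjusted p under 0.05, where 2 were higher.

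The other 6 genes overlapped between PWK and B6. Lss was at 289, 190 and 269 CPM in PWK and 155 to 234 CPM in B6 (log2 change 0.38, SE 0.17, adjusted p = 0.110 from edgeR). Cyp51 was at 353, 257 and 321 CPM in PWK and 203 to 329 CPM in B6 (0.31, SE 0.15, adjusted p = 0.140 from edgeR). Without B6 replicate 1 the Cyp51 difference passed (0.43, adjusted p = 0.0165). Hmgcs1 (0.18), Fdft1 (0.10), Sqle (0.09) and Dhcr7 (-0.08) had adjusted p between 0.409 and 0.724. PWK BioRep698 was the lowest PWK library for every one of the 7 genes. Feeder marker sums were 1892 to 2743 CPM in PWK and 50.6 to 2482 CPM in B6, and their part in these values was not tested.

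Between B6.129 F1 and B6, 0 of the 7 genes was called in edgeR, in DESeq2 or at an unadjusted p under 0.05. At an adjusted p under 0.05, edgeR called 2.84% of all genes. Log2 changes ran from -0.18 (SE 0.19) for Fdft1 to 0.12 (SE 0.17) for Lss. Insig1 was at 147, 116 and 110 CPM in B6.129 F1 replicate 4, replicate 9 and the unnumbered library. Against B6.129 F1, PWK was again higher for Insig1 alone (0.64, SE 0.15, adjusted p = 0.00812 from edgeR), where 20.7% of genes were called higher. This comparison shares the PWK libraries with the one above. All 7 feeder markers tested were also called higher in PWK, with sums of 1892 to 2743 CPM against 118 to 183 CPM in B6.129 F1, and their part was not tested. Of the 52 listed genes, 2 were called between B6.129 F1 and B6. These were the cholesterol exporters Abca1 (-2.28, SE 0.46) and Abcg1 (-2.01, SE 0.33), both lower in B6.129 F1. Feeder sums there were 118 to 183 CPM, against 50.6 to 2482 CPM in B6 (median log2 change of the 7 markers tested -2.66), and their part was not tested. The call of Abca1 (adjusted p = 0.0374 from edgeR) was lost in 4 of the 8 fits without 1 library. A fit of the 2 groups alone called 0 genes, so both calls were lost there (Abca1 adjusted p = 0.117 from edgeR). Both were also lost without the unnumbered B6.129 F1 library, where 0 genes were called. In the single DBA library, 6 of the 7 genes were within the range of the 5 B6 libraries, and 40.5% of all genes were outside it. The upper end of that range was B6 replicate 1 for all 7 genes. Hmgcs1 (697 CPM), Sqle (248 CPM) and Insig1 (129 CPM) in DBA lay above the other B6 libraries, while Fdft1, Lss and Cyp51 did not. Dhcr7 was at 95.6 CPM in the DBA library, below the B6 range of 115 to 177 CPM, as were 20.6% of genes. With 1 library there is no replicate check, and its title carries BioRep698, a number that PWK libraries also carry, beside the strain label DBA/2J.

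**Figure D5:**
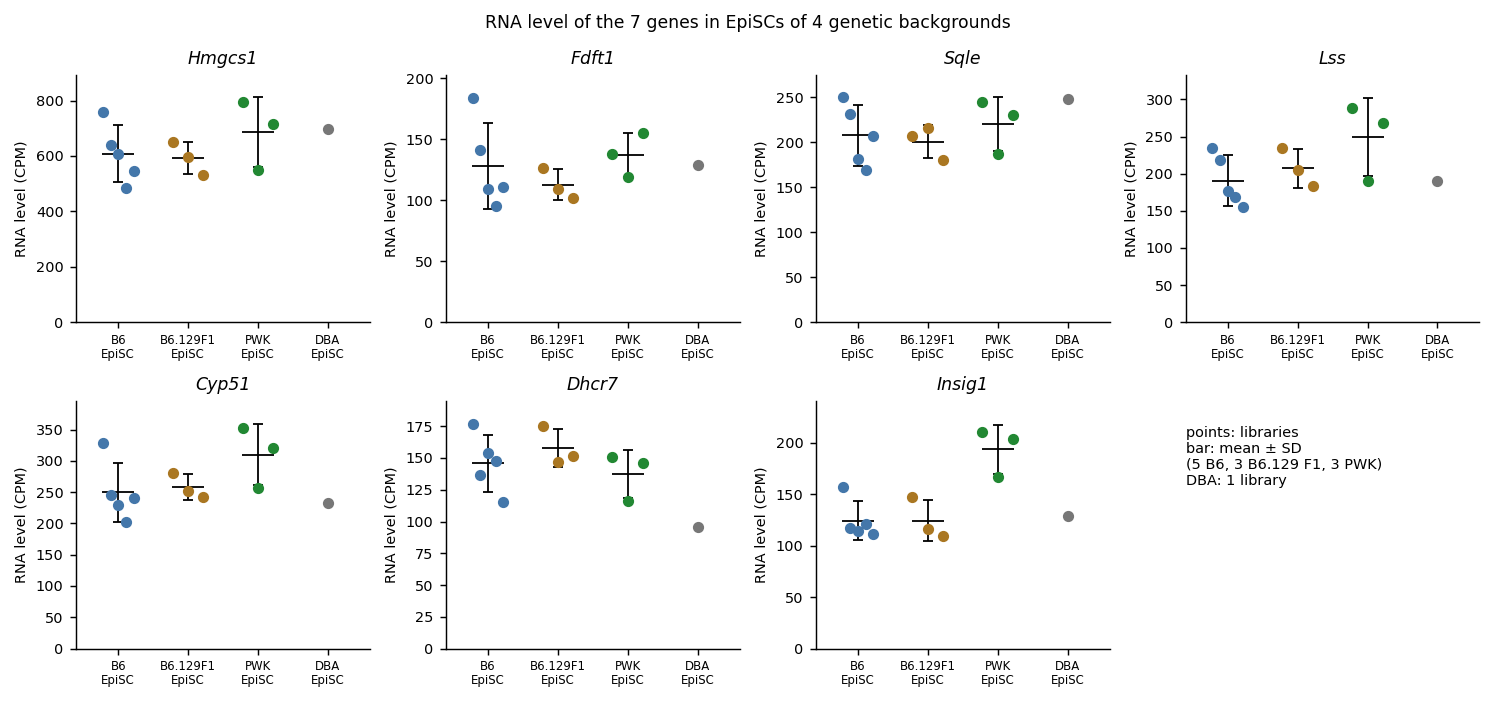
RNA level in CPM of the 7 genes in EpiSC libraries of B6 (5), B6.129 F1 (3), PWK (3) and DBA (1), with the mean ± SD where there are replicates. All PWK libraries are above all others for Insig1, at 167 to 211 CPM, and the DBA library is the lowest for Dhcr7, at 95.6 CPM.

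Over the 52 genes of the other lists, 4 were called higher in PWK than in B6 and 10 lower, against 12% and 14.5% of the 14822 genes tested. Mvd was higher in PWK (0.80, SE 0.18, adjusted p = 0.00712 from edgeR) and so was Acat2 (0.54, SE 0.15, adjusted p = 0.0236 from edgeR). These were 2 of the 8 mevalonate enzymes, with 0 lower in edgeR, in DESeq2 and at an unadjusted p under 0.05. Mvd kept its call without any 1 library. Without B6 replicate 44, PWK BioRep695 or the unnumbered PWK library only 1 of the 8 was called, so the call of Acat2 was lost. None of the 8 enzymes after squalene was called in edgeR, in DESeq2 or at an unadjusted p under 0.05. Srebf2, at 328 to 388 CPM in PWK and 358 to 479 CPM in B6, overlapped. Lipa, the lysosomal lipase, was called higher (0.54, SE 0.18), a call lost in 6 of the 8 fits without 1 library (adjusted p up to 0.168 from edgeR), with no filter (0.0533) and in a fit of the 2 groups alone (0.0795). Lower in PWK were Lrp2 (-2.09, SE 0.16), Scarb1 (-0.75, SE 0.14) and Soat1 (-0.86, SE 0.09). Build mm10 is given for both assays, and whether PWK reads were counted as fully as B6 reads was not tested. Of the fatty acid genes, 1 of 12 was called higher, Scd1 (0.52, SE 0.13), and 6 were called lower, among them Scd2 (-0.68, SE 0.12). The call of Scd1 was lost without PWK BioRep695 (adjusted p = 0.094 from edgeR) and without the unnumbered PWK library (0.0717).

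Accessibility was compared between PWK and B6 in the EpiSC peak set. Of 8 peaks near the genes, 1 was called higher in PWK and 0 lower by edgeR, against 1.42% and 3.68% of the 137667 peaks tested, with the same counts in DESeq2 and at an unadjusted p under 0.05. It lay inside Insig1, chr5:28071892-28072169, at 31.7 CPM in PWK BioRep698 and 27.3 CPM in the unnumbered PWK library. In B6 replicates 1, 4, 44 and 51 it was at 13.1, 7.48, 10.4 and 21.2 CPM. Both PWK libraries were above all B6 libraries, as at 12% of peaks. The log2 change was 1.18 (SE 0.31, adjusted p = 0.0368 from edgeR). Of the 6 fits that each left out 1 library, 5 lost the call and the one without B6 replicate 51 kept it (1.53, adjusted p = 0.00607). The DBA library was at 21.4 CPM. The peak over the Insig1 start in this set, chr5:28071085-28071447, changed by 0.24 (SE 0.28) and was not called.

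Across the 12 EpiSC RNA libraries, which share culture and library preparation and include 4 backgrounds, 6 of the 7 genes were positively correlated with each other. Pearson's r of log2 levels ran from -0.09 to 0.89 over the 21 pairs. Every pair that held Dhcr7 was at 0.43 or below, and every other pair was at 0.46 or above, the highest being Hmgcs1 with Sqle. By the rule used, the 8 genes whose levels were most like the mean of the 7 were Idh1 (r 0.87), Nup133 (0.84), Acat2 (0.83), Kpna6 (0.82), Ppp1r12a (0.81), Hykk (0.79), Dcp2 (0.78) and Tesk2 (0.78), of 9753 genes compared. Idh1 encodes a cytosolic dehydrogenase that yields NADPH. Acat2 was the only listed sterol gene of the 8, and 5 of the 48 listed genes compared were in the top 100 of the 9753, among them Nsdhl, Fdps and Elovl6. By Spearman's correlation 4 of the 8 stayed among the 8 most like, while Ppp1r12a ranked 21 and Hykk 75. These correlations are a description, with no test.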

How the data were processed

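RNA-seq (polyA RNA, stranded library kit) and ATAC-seq were deposited as tables of counts per gene and per peak. Per the submitters' processing notes, Salmon, featureCounts and DESeq2 were used for RNA, fastp, Bowtie2, MACS2, featureCounts and DESeq2 for ATAC, with build mm10. Which counter made the gene table, and whether it used strand, is not given in the sources used here, and neither is the convention for peak starts. Columns were matched to samples by name. Those of PWK and B6.129 F1 libraries without a number could be given only their group, 17 columns of a peak table matched no sample and were not used, and 3 PWK DE samples are not analysed here. The 5 B6 EpiSC columns are identical in both gene tables. CPM values were made from the deposited counts.

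Each whole table was fitted with edgeR 4.0.16 in R 4.3.3 (filterByExpr, TMM scaling, robust quasi-likelihood test, Benjamini-Hochberg adjustment over all features, called below 0.05). B6 DE and B6 EpiSC libraries shared a fit, as did the RNA libraries of the 3 replicated EpiSC backgrounds and the ATAC libraries of PWK and B6. DBA entered no test. The script was tested on simulated data. Alternatives were DESeq2 1.42.0, RLE scaling, total library size, other count filters, a replicate block, and leaving out each library. Peaks within 2 kb of an annotated start were taken for each gene. The wider lists hold 52 genes. Some of them are counted with their list and not reported singly here. The 7 genes and the lists were chosen with earlier results of these data known. Genes named from the lists were fixed by role or were the largest called changes. The genes most like the 7 were the 8 with the highest Pearson correlation with their mean over EpiSC libraries on log2(CPM + 1), among genes with a mean log2 CPM of at least 3. Promoter sequences and gene coordinates are from RefSeq for GRCm38.p6.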

Additional observations from a re-analysis of the deposited data

Results flagged for a closer look

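Of 84 groups of 4 or more libraries examined for a single value far from the rest, 5 held one, where chance gives about 1 in 20. In DE replicate 2, Fdft1 RNA was at 406 CPM with the other DE libraries at 344 to 348 CPM, and Apoe RNA was at 1137 CPM with the others at 532 to 564 CPM. The ATAC library of DE replicate 2 held the highest value of the Sqle peak, 54.1 CPM, with the others at 40.9 to 43.1 CPM. In EpiSC replicate 1, Insig1 RNA was at 151 CPM, with the other B6 EpiSC libraries at 107 to 117 CPM. In EpiSC replicate 51, Tm7sf2 RNA was at 14.7 CPM, with the others at 20.8 to 22.6 CPM.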

How the results depend on the processing

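Of the single values under alternatives, 1074 kept their direction and side of the threshold, 47 changed sign, 66 lost a call and 5 gained one, while 286 counts stayed within 1.5 times and 47 did not. The causes were not tested. Srebf2 RNA in DE turned to -0.034 with DESeq2 and RLE scaling, -0.045 with at least 10 counts, -0.0036 with no filter, -0.030 with the libraries of the block fit and -0.058 with total library size. In the same way, the Hmgcs1 peak turned to -0.0162 with DESeq2, -0.017 with RLE scaling, -0.0456 with the libraries of the block fit and -0.18 with total library size, and the Cyp51 peak to -0.045 with those libraries and -0.088 with total library size. Insig1 in B6.129 F1 turned to -0.00599 with at least 10 counts and -0.024 with total library size. Leaving out 1 library gave -0.0738 to 0.172 for the Cyp51 peak, -0.104 to 0.0121 for the Hmgcs1 peak, -0.00986 to 0.363 for Dhcr7 and -0.151 to 0.189 for Srebf2 in DE. For PWK it gave -0.162 to 0.0125 for Dhcr7 and -0.00138 to 0.267 for Fdft1. For B6.129 F1 it gave -0.0170 to 0.209 for Cyp51, -0.276 to 0.0205 for Fdft1, -0.107 to 0.0957 for Hmgcs1, -0.137 to 0.140 for Insig1 and -0.116 to 0.0659 for Sqle.

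Leaving out 1 library left 1 to 2 of the peaks near the 7 genes higher in DE, 0 to 1 higher in PWK, and 1 to 2 of the 7 genes higher in PWK. Over all features it left 1126 to 2428 genes higher and 1317 to 2476 lower in PWK, 0 to 1001 higher and 0 to 951 lower in B6.129 F1, and 1001 to 2027 peaks higher and 2628 to 5418 lower in PWK. With at least 10 counts in every library, which tests fewer peaks, 9868 peaks were higher and 8144 lower in DE, and 667 higher and 1443 lower in PWK. For B6.129 F1, DESeq2 called 876 genes higher and 1124 lower, against 199 and 222, a fit of those 2 groups alone called 0 and 0, and no filter left 146 lower. Total library size left 1 peak near the genes higher in DE. It moved the median of all features to -0.104 for RNA and -0.221 for ATAC in DE and to 0.124 for ATAC in PWK. It also moved the share of higher calls from 45.4% to 56.6% for PWK RNA, from 51.7% to 62.3% for PWK against B6.129 F1, from 47.3% to 37.6% for B6.129 F1, and from 56.6% to 47.6% for ATAC in DE. By Spearman, 8 listed genes were among the 100 most like, against 5. For ATAC in PWK the fit held only the PWK and B6 libraries, so no separate fit of the pair was run.

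DE and EpiSC libraries share numbers that the labels do not explain. Same-numbered RNA libraries deviated together with r of 0.15, 0.0915, 0.231 and 0.197, and ATAC libraries with 0.063, -0.00726 and 0.0343. These values do not settle whether equal numbers mark a pair, and the main test treated the libraries as unpaired. Among RNA libraries with a shared number, every one except DE replicate 4 correlated best with its own number, which is a hint from the data and not the design. DE replicate 4 correlated best with EpiSC replicate 1 (0.129). With the replicate block, 4 of the 7 genes were higher, against 5 without it in the same libraries, the difference being Hmgcs1 (adjusted p = 0.066 with the block and 0.0241 without it, from edgeR). There 3792 genes were higher and 3939 lower, against 4171 and 4026. For ATAC, 1 peak near the genes was higher with and without the block, and 32883 peaks were higher and 21504 lower, against 35207 and 26136. Under the block the Lss peak had an adjusted p of 0.0572 (0.0658 without it), Srebf2 was at -0.069, the Hmgcs1 peak at -0.045 and the Cyp51 peak at -0.023. No paired analysis was possible for the strains because PWK and B6 share no number. The Insig1 peaks rest on few counts, which limits their precision.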
